A study of Homo sapiens with 6 samples.

Results

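The MAPK feedback genes described here were DUSP4, DUSP5, DUSP6, SPRY2, SPRY4, SPRED1, SPRED2, ETV4, ETV5 and PHLDA1, a set of 10 symbols chosen by name as outputs and brakes of ERK signalling. They matched 11 of the 24108 rows of the expression table, because PHLDA1 was listed in 2 rows, and all 11 passed the filter on low values. RNA-seq compared MDA-MB-231 cells carrying a hairpin against luciferase (shCtr) with cells carrying a hairpin against ZNF148 (shZNF148), with 3 samples in each group. Both groups were transduced with lentivirus for 48 h and then selected for 24 h in puromycin at 0.5 µg/ml. Both groups were thus selected pools of transduced cells. The design held 1 hairpin against ZNF148 and 1 control hairpin, so an effect of the hairpin sequence and an effect of ZNF148 loss cannot be told apart. The labels do not say whether replicates were separate cultures, and p-values therefore measure only the spread between these samples, which may be technical.

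The cell line MDA-MB-231 was derived from a triple-negative breast cancer and is a line in which the kinase cascade from RAS through RAF and MEK to ERK is kept switched on. Active ERK induces the genes of its own inhibitors. DUSP phosphatases remove phosphate from MAP kinases, Sprouty proteins block signalling between receptor tyrosine kinases and RAS or RAF, and Spred proteins bring the RAS inactivator neurofibromin to the membrane. The ETS factors ETV4 and ETV5 and the pleckstrin homology-like protein PHLDA1 are transcribed in response to ERK and are widely read as its outputs.

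The labelled line was checked first. VIM (1507 to 1842 FPKM), CD44 (402 to 606 FPKM) and AXL (276 to 369 FPKM), which mark mesenchymal breast cancer cells, were high in all 6 samples. ESR1 was listed at 0 in all 6, PGR was at or below 0.083 FPKM and CDH1 at or below 0.491 FPKM. ERBB2 was joined with a miRNA gene in 1 row, and its values were not assigned to either. That row was 20.1, 126 and 20.1 FPKM in shCtr and 24.8, 125 and 21.9 FPKM in shZNF148. It was thus far higher in replicate 2 of both groups, for a cause that was not tested. CD44 and AXL were lower in shZNF148 (adjusted p = 0.0185 and 0.0364, limma), by less than 1.5-fold. VIM was also lower but did not pass (log2 fold change -0.22, adjusted p = 0.0563, limma). These markers were not followed under other processing settings or with samples left out. FPKM counts fragments per transcript kilobase and is scaled for library size. Comparing levels between genes still relies on the annotation and read assignment used, which are not given in the sources used here. The number of reads was unknown. Steps between low values gave a depth of between 0.806 and 1.13 relative to shCtr replicate 1. ZNF148, the targeted gene, was 3.72, 4.36 and 4.30 FPKM in shCtr and 0.914, 0.282 and 0.834 FPKM in shZNF148. It fell by 1.63 on the log2 scale of FPKM + 1 (SE 0.18, adjusted p = 0.0099, limma). Its adjusted p was, however, 0.0603 without shCtr replicate 1 and 0.0568 without shCtr replicate 3 (limma). The shZNF148 mean of ZNF148 was 0.677 FPKM, or 16.4% of the control mean. ZNF148 thus passed the filter of a mean of 1 FPKM only through shCtr. The size of its fall depended on the constant added to FPKM, at -2.57, -2.02 and -0.69 with 0.1, 0.5 and 5 FPKM.

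The sequence that defines the perturbation and promoters of DUSP6 and of both Sprouty genes are shown first. The hairpin was directed at a 21-base stretch of ZNF148 at chr3:125232398-125232418 (GRCh38, minus strand), in the coding part of exon 9 of 9 of the canonical GENCODE transcript. It is printed with the 7 bases that pair with bases 2 to 8 of the guide strand in capitals.
shZNF148 target: cccttggtgaatgTAAATGAt

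Promoter sequences were taken from RefSeq on GRCh38.p14 and run from 250 bases before to 50 bases after a transcript start. Such sequences were found for 6 of the 10 members (9 promoters), and were not used here for DUSP4, DUSP5, ETV4 and ETV5. The word CCCTCCCC, a C run of the kind that ZNF148 and its relative ZNF281 bind, was searched on both strands and is in capitals. The sequences printed are for DUSP6, the single member called (chr12:89352452-89352751, minus strand), SPRY4 (chr5:142324198-142324497, minus strand), and the SPRY2 start that held the word (chr13:80339610-80339909, minus strand).
DUSP6: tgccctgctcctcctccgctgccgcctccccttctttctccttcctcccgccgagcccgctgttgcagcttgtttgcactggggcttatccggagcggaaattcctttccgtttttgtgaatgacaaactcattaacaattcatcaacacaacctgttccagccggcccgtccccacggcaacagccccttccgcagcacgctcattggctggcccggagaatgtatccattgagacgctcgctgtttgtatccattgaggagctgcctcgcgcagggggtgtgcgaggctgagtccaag
SPRY4: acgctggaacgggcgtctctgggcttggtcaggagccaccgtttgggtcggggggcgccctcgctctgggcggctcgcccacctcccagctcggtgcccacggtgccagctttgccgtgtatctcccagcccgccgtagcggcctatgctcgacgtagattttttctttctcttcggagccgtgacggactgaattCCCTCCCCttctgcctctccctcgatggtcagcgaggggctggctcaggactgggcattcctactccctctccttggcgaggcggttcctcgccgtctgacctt
SPRY2: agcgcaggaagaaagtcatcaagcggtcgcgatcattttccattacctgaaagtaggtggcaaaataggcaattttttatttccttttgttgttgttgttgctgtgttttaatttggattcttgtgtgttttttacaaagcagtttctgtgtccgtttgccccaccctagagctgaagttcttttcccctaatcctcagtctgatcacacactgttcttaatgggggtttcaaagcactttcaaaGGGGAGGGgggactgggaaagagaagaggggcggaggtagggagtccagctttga

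The word was present in 2 of the 9 promoters, once in SPRY4, starting at base -54 relative to the transcript start, and once in SPRY2, starting at base -5 as its reverse complement GGGGAGGG. The DUSP6 window held no match. Of all 35116 promoters of the same length, 13.6% held the word. The word CCGGAAGT, of the kind that ETS factors bind, was in 0 of the 9 promoters and in 4.14% of all promoters. These matches are letters in a window and do not show binding. In 3′ UTRs of the canonical GENCODE transcripts, the 7-base hairpin word TAAATGA was found in 3 of the 10 members, with 2 copies in SPRED1 and 1 each in ETV4 and PHLDA1. Among 9430 tested genes with such a UTR, 22.7% held it. This search was chosen after the values had been seen.

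Knockdown of ZNF148 was accompanied by lower DUSP6 and by no shared direction of the feedback genes. Calls required an adjusted p under 0.05 (limma on log2(FPKM + 1), Benjamini-Hochberg over 11777 tested rows) and a change of more than 1.5-fold. Among the 11 member rows, 1 was called lower, where 3.66% of all tested rows were called lower. None was called higher by limma, where 1.83% of all rows were. At an unadjusted p under 0.05, 4 member rows were lower and 2 higher, so 6 of 11 passed where 33.8% of all tested rows did. At the adjusted p alone 1 of 11 member rows passed, against 13.6% of all rows. The median log2 fold change was 0.09 over the member rows and 0.01 over all tested rows. The values of both groups did not overlap for 5 member rows. Of these, 3 were lower in shZNF148, where 21.0% of all rows were, and 2 were higher, where 20.0% were.

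**Figure D1:**
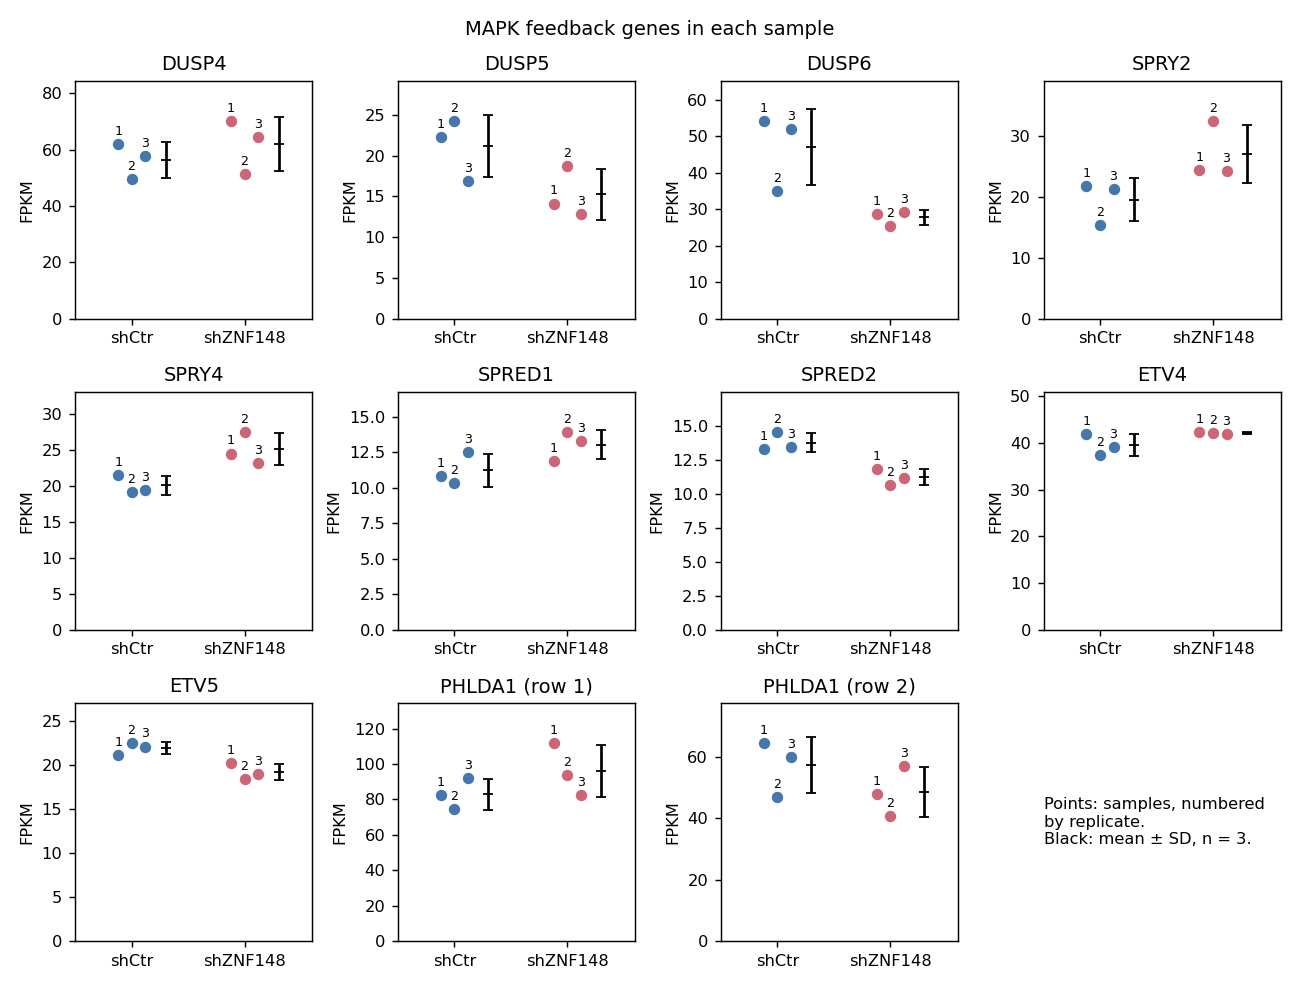
FPKM (vertical axis, from 0) of each member row in the 3 shCtr and 3 shZNF148 samples, numbered by replicate, with the mean ± SD (n = 3) beside them. The 3 shZNF148 values of DUSP6 (25.4 to 29.1 FPKM) lie below all shCtr values (35.0 to 54.2 FPKM), while those of SPRY2 and SPRY4 lie above.

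Among the phosphatases, DUSP6 is the cytoplasmic enzyme with high preference for ERK, and DUSP5 is its nuclear counterpart. DUSP6 (chromosome 12 from 89347235 to 89352501, minus strand, GRCh38) was 54.2, 35.0 and 51.8 FPKM in shCtr replicates 1, 2 and 3. It was 28.8, 25.4 and 29.1 FPKM in shZNF148 replicates 1, 2 and 3. The shZNF148 samples lay close together and below every control, and the control spread came mostly from the low shCtr replicate 2. On average DUSP6 stood at 27.8 ± 2.08 FPKM after knockdown against 47.0 ± 10.5 FPKM in controls (SD, n = 3 per group), or 59.1% of the control mean. DUSP6 fell by 0.72 on the log2 scale (standard error 0.17, 95% interval -1.11 to -0.32, adjusted p = 0.0394, limma). The exact permutation p (two-sided) was 0.1, which is as low as a design of 3 against 3 can go. The call was held without shCtr replicate 2 (log2 fold change -0.91, adjusted p = 0.0282, limma). It was lost without any of the other samples, with limma's adjusted p at 0.128 without shCtr replicate 1, 0.122 without shCtr replicate 3, and 0.0824, 0.0706 and 0.0678 without shZNF148 replicates 1, 2 and 3.

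**Figure D2:**
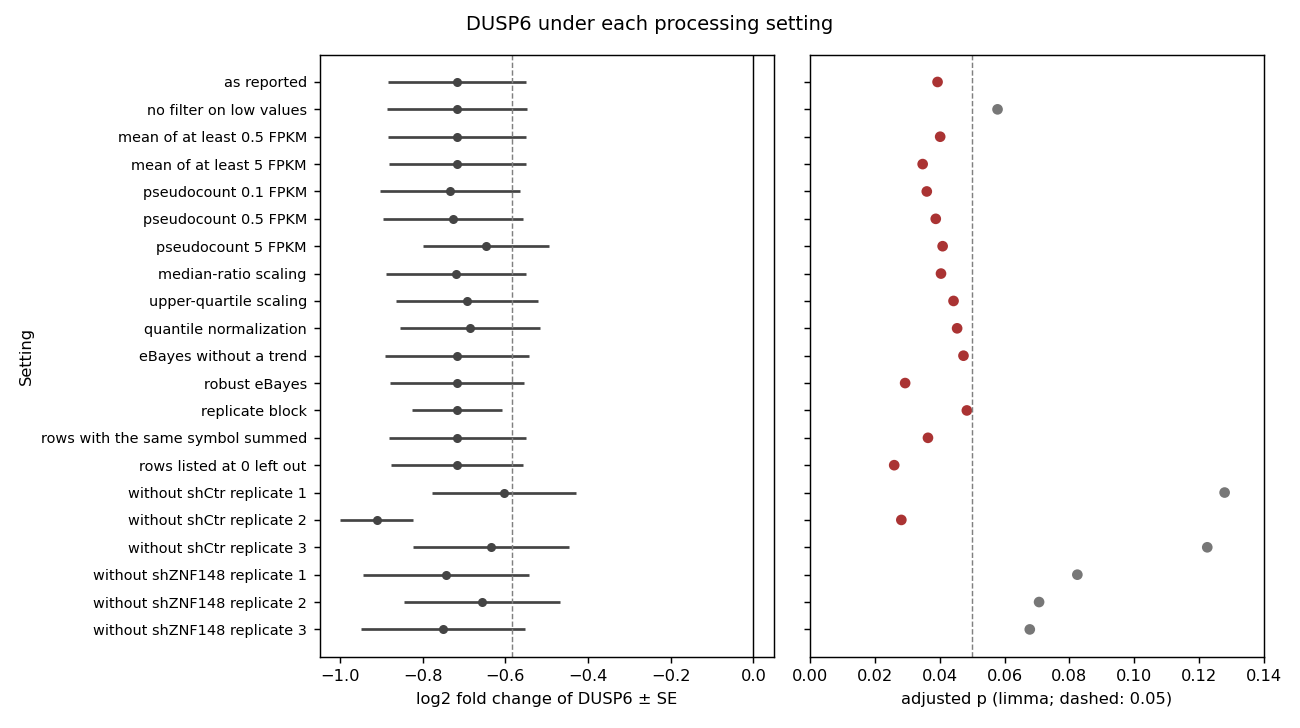
DUSP6 under each processing setting and with each sample left out. The left panel gives the log2 fold change ± SE and the right panel limma's adjusted p. The fold change stayed between -0.91 and -0.60 while the adjusted p crossed 0.05 in 6 of 20 alternatives.

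DUSP5 (chromosome 10 from 110497907 to 110511533, plus strand) was 22.3, 24.3 and 16.9 FPKM in shCtr and 14.1, 18.8 and 12.9 FPKM in shZNF148. The groups overlapped, because shCtr replicate 3 lay under shZNF148 replicate 2. Its log2 fold change of -0.45 (95% interval -0.87 to -0.03) had an adjusted p of 0.128 (limma). DUSP4, a nuclear phosphatase that acts on ERK and other MAP kinases, was 62.1, 49.5 and 57.6 FPKM in shCtr and 70.3, 51.5 and 64.5 FPKM in shZNF148. In both groups replicate 2 was lowest, and the groups overlapped. The log2 fold change of DUSP4 was 0.13 (95% interval -0.19 to 0.45, adjusted p = 0.529, limma).

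The balance between these phosphatases was read within each sample, where scaling between samples plays no part. The log2 ratio of DUSP4 to DUSP6 was 0.20, 0.50 and 0.15 in shCtr and 1.29, 1.02 and 1.15 in shZNF148. Its mean therefore differed by 0.87, and the groups did not overlap. The ratio of DUSP5 to DUSP6 overlapped between groups, with means of -1.14 ± 0.56 in shCtr and -0.88 ± 0.39 in shZNF148 (log2, SD, n = 3 each). These ratios were chosen after the values were seen and were not tested.

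The Sprouty genes lay on the other side of the control level. SPRY2 (chromosome 13 from 80335976 to 80341126, minus strand) was 21.9, 15.5 and 21.3 FPKM in shCtr and 24.4, 32.6 and 24.3 FPKM in shZNF148. All shZNF148 values were above all controls, and replicate 2 was the extreme sample of each group, lowest in shCtr and highest in shZNF148. The log2 fold change of SPRY2 was 0.45 (95% interval 0.06 to 0.85, adjusted p = 0.111, limma). SPRY4 (chromosome 5 from 142310427 to 142326455, minus strand) was 21.5, 19.2 and 19.5 FPKM in shCtr and 24.5, 27.5 and 23.2 FPKM in shZNF148. The SPRY4 groups did not overlap either, and the log2 fold change was 0.31 (95% interval 0.10 to 0.51, adjusted p = 0.0616, limma). Neither Sprouty gene passed, and both stayed under 1.5-fold. The ratio of SPRY2 to SPRY4 overlapped between groups (log2 means -0.05 ± 0.23 and 0.10 ± 0.13, SD, n = 3 each).

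Set against DUSP6 in the same sample, the Sprouty genes stood closer to it in shZNF148. The log2 ratio of SPRY2 to DUSP6 was -1.31, -1.18 and -1.28 in shCtr and -0.24, 0.36 and -0.26 in shZNF148. In controls, DUSP6 was thus clearly above SPRY2 in every sample, and in shZNF148 it was still above SPRY2 in 2 of 3 samples, by a smaller margin. The log2 ratio of SPRY4 to DUSP6 moved from -1.20 ± 0.29 to -0.15 ± 0.24 (SD, n = 3 each) with no overlap. Both pairs were picked for this difference and were not tested.

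SPRED1 and SPRED2, the membrane partners of neurofibromin, differed in sign. SPRED2 (chromosome 2 from 65310851 to 65432637, minus strand) was 13.3, 14.6 and 13.4 FPKM in shCtr and 11.8, 10.6 and 11.2 FPKM in shZNF148. Its groups did not overlap, and the log2 fold change was -0.27 (95% interval -0.45 to -0.10, adjusted p = 0.0565, limma), which did not pass. SPRED1 (chromosome 15 from 38252836 to 38357249, plus strand) was 10.8, 10.4 and 12.5 FPKM in shCtr and 11.9, 13.9 and 13.3 FPKM in shZNF148. Its groups overlapped, and the log2 fold change was 0.20 (95% interval -0.03 to 0.44, adjusted p = 0.201, limma). Within samples the log2 ratio of SPRED1 to SPRED2 was -0.30, -0.49 and -0.10 in shCtr and 0.01, 0.39 and 0.25 in shZNF148. SPRED2 was therefore the higher of the pair in every control sample and SPRED1 in every shZNF148 sample, by almost nothing in replicate 1. This ratio, too, was chosen after the values were seen and was not tested.

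**Figure D3:**
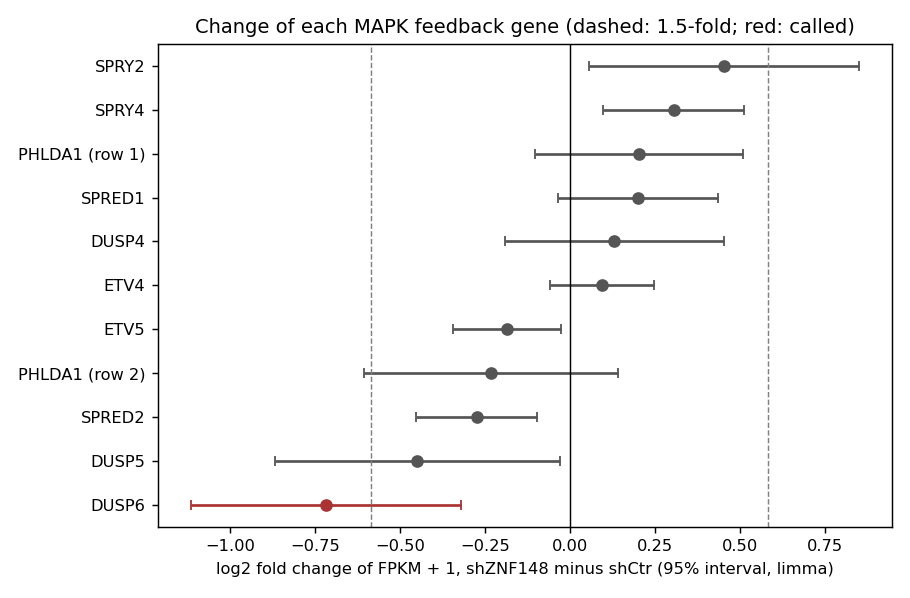
Log2 fold change of FPKM + 1 (shZNF148 minus shCtr) of each member row with limma's 95% interval, ordered by value; dashed lines mark 1.5-fold. DUSP6 is the only row called, and the intervals of DUSP5, SPRED2, ETV5, SPRY4 and SPRY2 exclude 0 without an adjusted p under 0.05.

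The ETS factors changed little. ETV5 (chromosome 3 from 186046314 to 186110318, minus strand) was 21.2, 22.6 and 22.2 FPKM in shCtr and 20.2, 18.4 and 19.1 FPKM in shZNF148. The groups did not overlap, and the log2 fold change was -0.18 (95% interval -0.34 to -0.03, adjusted p = 0.107, limma). ETV4 (chromosome 17 from 43527844 to 43579620, minus strand) was 42.0, 37.4 and 39.1 FPKM in shCtr and 42.4, 42.1 and 42.0 FPKM in shZNF148. The shZNF148 values of ETV4 were nearly equal and lay around the highest control. Its log2 fold change was 0.09 (95% interval -0.06 to 0.25, adjusted p = 0.344, limma), so an increase of 1.5-fold lay outside the interval. In GENCODE the ETV4 locus shares 51777 bases with DHX8 on the opposite strand, which was at up to 21.6 FPKM. Whether the libraries kept strand is not given in the sources used here.

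PHLDA1, which is induced by growth factors and restrains cell survival signals, was listed in 2 rows that the table does not tell apart. The row with the higher mean was 82.4, 74.5 and 92.1 FPKM in shCtr and 112, 94.1 and 82.5 FPKM in shZNF148. The second row was 64.5, 47.0 and 60.0 FPKM in shCtr and 48.0, 40.8 and 56.8 FPKM in shZNF148. Both rows overlapped between groups and leaned in opposite directions, with log2 fold changes of 0.20 (95% interval -0.10 to 0.51, adjusted p = 0.305, limma) and -0.23 (95% interval -0.61 to 0.14, adjusted p = 0.339). With the rows of PHLDA1 added, the log2 fold change was 0.05 (adjusted p = 0.780, limma). A direction for PHLDA1 therefore cannot be given.

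In the order of levels, PHLDA1 and DUSP4 were highest in both groups and the Spred genes lowest. In shCtr the means ran from 83.0 FPKM (the higher PHLDA1 row) to 11.2 FPKM (SPRED1). DUSP6 stood next to DUSP4 there, with overlapping ranges, and its range also overlapped that of ETV4 (39.5 FPKM). In shZNF148, DUSP6 (27.8 FPKM) was below ETV4 (42.2 FPKM) with no overlap, and its range overlapped that of SPRY2 (27.1 FPKM). ETV5, DUSP5, SPRY4 and SPRY2 followed in shCtr, from 19.5 FPKM for SPRY2 upwards, and neighbours among them overlapped.

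**Figure D4:**
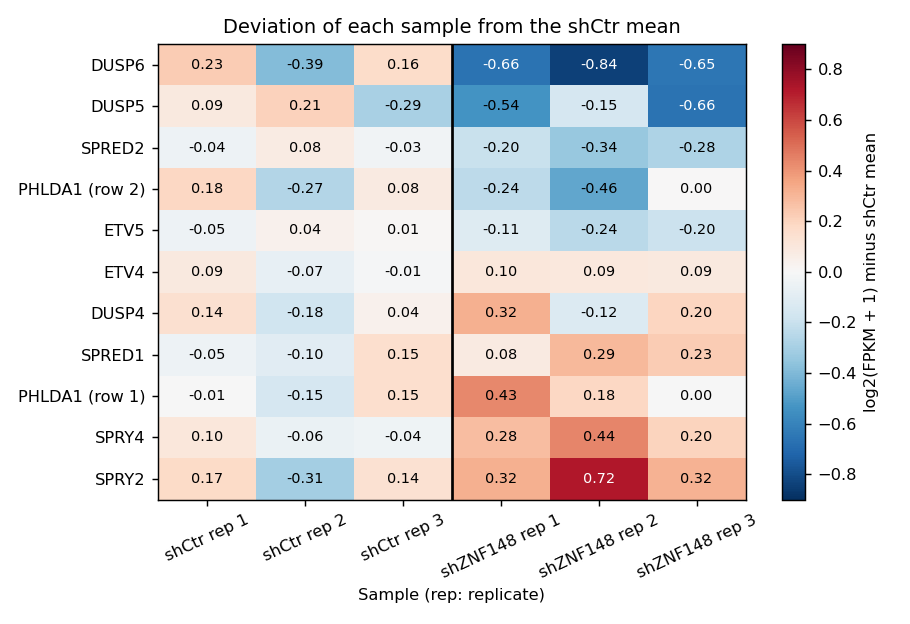
Log2(FPKM + 1) of each member row in each sample minus the shCtr mean of that row, with the value in each cell; rows are ordered by their log2 fold change. DUSP6 is between -0.84 and -0.65 in the shZNF148 samples and -0.39 in shCtr replicate 2, the sample where SPRY2 is also low (-0.31).

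Within the control group, shCtr replicate 2 was the lowest of the 3 samples for 8 of the 11 member rows, among them DUSP6 and SPRY2. Over all tested rows it was lowest in 34.2%. The part of this sample in the spread of DUSP6 was measured only by leaving it out, as given above. The tested rows whose pattern over the 6 samples was nearest to that of DUSP6 were SEC31B, ZFP36L1 and LOC100288778. Their root mean square differences from DUSP6 were 0.0397, 0.0403 and 0.0828 on the log2 scale, centred on the shCtr mean. These rows were picked for likeness over both groups, so a fall near that of DUSP6 was fixed by the choice. Their p-values are given as description only. ZFP36L1, which encodes an mRNA decay factor, was 115, 78.1 and 107 FPKM in shCtr and 61.8, 56.0 and 60.4 FPKM in shZNF148, and it fell by 0.72 (adjusted p = 0.0277, limma). SEC31B (-0.71, adjusted p = 0.0506) and LOC100288778 (-0.62, adjusted p = 0.0508) did not pass.

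The rest of the pathway was followed in 5 lists of 54 symbols, of which 48 were tested in 50 rows. In these, 4 rows were called lower, 2 were called higher and 12 had an adjusted p under 0.05 (limma). Over all tested rows these shares were 3.66%, 1.83% and 13.6%, and 33.8% had an unadjusted p under 0.05. Among the other MAP kinase phosphatases, 1 of 4 tested genes was called lower and 1 higher. DUSP1, the immediate early phosphatase of ERK, JNK and p38, was 8.87, 6.45 and 9.25 FPKM in shCtr and 4.03, 4.19 and 4.20 FPKM in shZNF148. DUSP1 fell by 0.82 on the log2 scale (standard error 0.13, adjusted p = 0.0195, limma). DUSP10, which acts on JNK and p38 in preference to ERK, was 27.7, 26.8 and 29.5 FPKM in shCtr and 50.2, 69.7 and 46.4 FPKM in shZNF148. DUSP10 rose by 0.94 (standard error 0.15, adjusted p = 0.0182, limma). DUSP7 and DUSP16 did not pass, and DUSP2, DUSP8 and DUSP9 were under the filter of a mean of 1 FPKM.

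SPRY1 was called higher, as 1 of 2 tested genes among the other Sprouty and Spred genes, where 1.83% of all tested rows were. It was 3.82, 4.65 and 4.33 FPKM in shCtr and 7.05, 7.61 and 7.24 FPKM in shZNF148, so it rose by 0.66 on the log2 scale (SE 0.09, adjusted p = 0.0146, limma). All 3 shZNF148 values were far above the controls, at a level well under those of SPRY2 and SPRY4. SPRED3 (-0.27, adjusted p = 0.263) did not pass, and SPRY3 was listed at 0 in all samples. The calls of DUSP1, DUSP10 and SPRY1 were lost in limma without shCtr replicate 1 (adjusted p = 0.0893, 0.0838 and 0.0710) and without shCtr replicate 3 (0.0770, 0.0702 and 0.0684). DUSP10 was also lost without shCtr replicate 2 (0.0605) and DUSP1 without shZNF148 replicate 1 (0.0551). With a pseudocount of 5 FPKM, DUSP1 (-0.52) and SPRY1 (0.41) were under 1.5-fold and no longer called.

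Among 11 tested rows of other ERK output genes, none was called by limma, 4 had an adjusted p under 0.05 and 6 an unadjusted p under 0.05. Of all tested rows, 13.6% passed at the adjusted p and 33.8% at the unadjusted p. CCND1, the cyclin that ERK sustains in G1, was 104, 126 and 113 FPKM in shCtr and 165, 184 and 167 FPKM in shZNF148. Its groups were well apart, and the log2 fold change of 0.58 (adjusted p = 0.0169, limma) stood just under 1.5-fold. The immediate early factor EGR1 was 6.08, 6.53 and 5.11 FPKM in shCtr and 4.06, 4.16 and 3.07 FPKM in shZNF148 (log2 fold change -0.54, adjusted p = 0.0447). MYC (-0.31, adjusted p = 0.0431) and MAFF (-0.46, adjusted p = 0.0273) were also lower and under 1.5-fold. With a replicate block, EGR1, MYC and MAFF did not pass in limma (adjusted p = 0.0589, 0.0710 and 0.0644). MYC did not pass in any fit that left out a sample (adjusted p from 0.0625 to 0.143, limma), nor with quantile normalization (0.0784), upper-quartile scaling (0.0575), no filter (0.0555) or no variance trend (0.0595). EGR1 passed only without shZNF148 replicate 2 among the fits that left out a sample, and MAFF only without shZNF148 replicate 2 or 3. EGR1 was also lost with no filter (adjusted p = 0.0727). CCND1 lost its adjusted p without shCtr replicate 1 (0.0767) or replicate 3 (0.0729). FOSL1, an AP-1 subunit stabilised by ERK, was at 399 to 462 FPKM in shCtr and 329 to 382 FPKM in shZNF148, with a log2 fold change of -0.22 (adjusted p = 0.130, limma). As with the feedback genes, the members of this list lay on both sides of the control level, with 6 of 11 above 0.

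**Figure D5:**
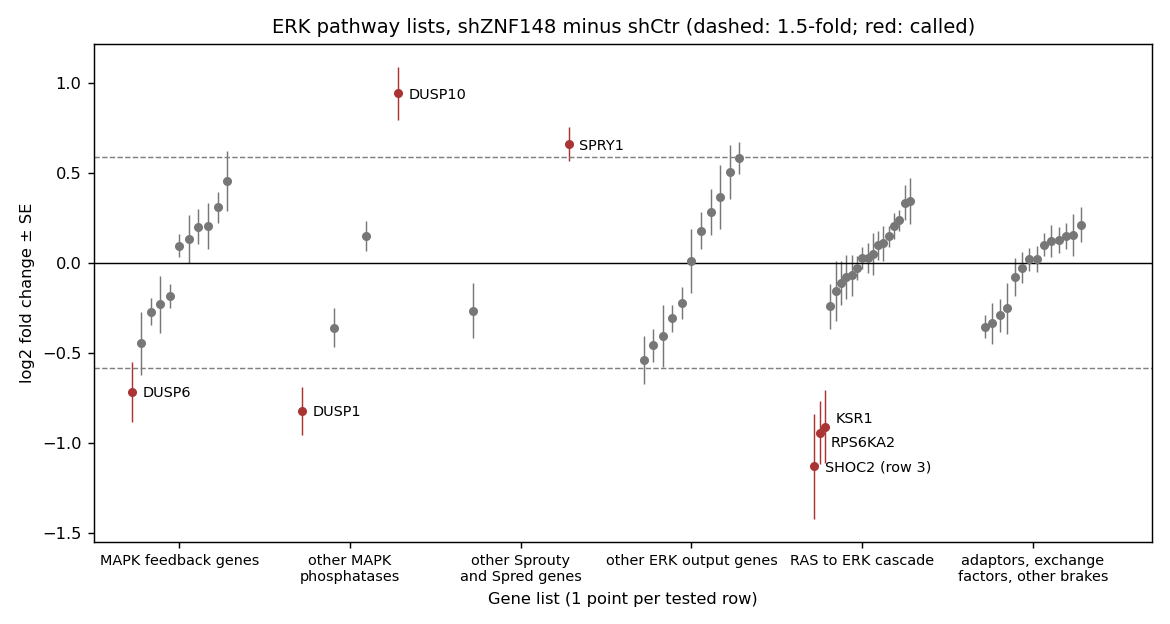
Log2 fold change ± SE of every tested row of the MAPK feedback genes and of 5 other ERK pathway lists, ordered within each list; dashed lines mark 1.5-fold and red points were called. Called rows lie on both sides of 0 among the phosphatases and only below 0 in the cascade list. There KSR1 and RPS6KA2 passed the filter on low values only through shCtr.

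In the cascade from RAS to ERK, 3 of 19 tested rows were called lower and none higher by limma. In this list 4 rows had an adjusted p under 0.05 and 8 an unadjusted p under 0.05 (limma). Of all tested rows, 3.66% were called lower and 1.83% higher, 13.6% passed at the adjusted p and 33.8% at the unadjusted p. KSR1, the scaffold that holds RAF, MEK and ERK together, was 2.22, 2.57 and 1.57 FPKM in shCtr and 0.901, 0.303 and 0.793 FPKM in shZNF148. KSR1 fell by 0.91 (standard error 0.20, adjusted p = 0.0355). RPS6KA2, a ribosomal S6 kinase downstream of ERK, was 1.85, 1.58 and 2.06 FPKM in shCtr and 0.610, 0.181 and 0.654 FPKM in shZNF148. RPS6KA2 fell by 0.95 (standard error 0.18, adjusted p = 0.0239). With the replicate number as a block, neither passed (adjusted p = 0.0802 for KSR1 and 0.0514 for RPS6KA2). Their shZNF148 means were 0.666 FPKM (KSR1) and 0.482 FPKM (RPS6KA2), so both passed the filter of a mean of 1 FPKM only through shCtr. A filter passed in this way favours lower calls, so the lack of higher calls in this list is not read as a direction. RPS6KA2 was not tested without shCtr replicate 3. Both are low genes whose size of change depended on the pseudocount. The log2 fold change of KSR1 was -1.61, -1.19 and -0.33 with 0.1, 0.5 and 5 FPKM, and that of RPS6KA2 was -1.85, -1.28 and -0.32. The third call was 1 of 3 rows of SHOC2, the one with the lowest mean (-1.13, adjusted p = 0.0496), while the row of SHOC2 with the highest mean was at -0.16 (adjusted p = 0.534) and the remaining row at 0.10 (adjusted p = 0.441). The SHOC2 call was held in 5 of 18 alternatives. With single samples left out, the call was held in 1 case for SHOC2 and 1 for KSR1, both without shZNF148 replicate 2. For RPS6KA2 it was held in 2, without shZNF148 replicate 2 or 3. The adjusted p otherwise rose to as much as 0.158 for SHOC2, 0.123 for KSR1 and 0.0964 for RPS6KA2 (limma).

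Kinases of the same list that did not pass included BRAF, with a log2 fold change of 0.11 (95% interval -0.13 to 0.34, adjusted p = 0.476, limma). MAPK3, which encodes ERK1, had a log2 fold change of -0.07 (95% interval -0.34 to 0.20, adjusted p = 0.690, limma), and its sign changed without shZNF148 replicate 3. Among 14 adaptors, exchange factors and other brakes, none was called by limma, 1 had an adjusted p under 0.05 and 3 an unadjusted p under 0.05. These compare with 13.6% and 33.8% of all tested rows. The 1 that passed was ERRFI1, an inducible inhibitor of the EGF receptor, at 212 to 236 FPKM in shCtr and 168 to 178 FPKM in shZNF148 (log2 fold change -0.36, adjusted p = 0.0223). ERRFI1 did not pass with a replicate block (adjusted p = 0.0671, limma), without any one shCtr sample (0.0960, 0.0563 and 0.0889) or without shZNF148 replicate 1 (0.0623).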

How the data were processed

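RNA-seq of 6 MDA-MB-231 samples (3 shCtr, 3 shZNF148) was used. The authors' deposited table gave FPKM values, with 1 column per sample. The submitters' processing notes name bcl2fastq 2.17.1.14, TopHat2 2.0.14, Cufflinks 2.2.1 and Cuffnorm 2.2.1 with the builds hg18 and hg19, whereas the paper's methods name Salmon, GRCh38 and DESeq2. Which of these made the FPKM values, and with which annotation, is not given in the sources used here. FPKM are not counts, so the study's test was not repeated, and the read number behind low values is unknown.

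Of 24108 rows, 11777 averaged 1 FPKM or more across samples and were tested. The fit used limma 3.58.1 (R 4.3.3) on log2(FPKM + 1), a single term for the hairpin, eBayes with trend set, and Benjamini-Hochberg p-values over every tested row. This scale understates the change of low genes. A call needed an adjusted p under 0.05 and over 1.5-fold. Counts cover every tested row, so a gene with several rows can count more than once. The steps were tested only on simulated data with independent noise and changes of 1.5 on the log2 scale. Those changes were larger than that of any member, so the recovery of changes of the members' size was not tested.

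The members and the gene lists were chosen with earlier results of these data known. Named genes were the members, ZNF148, listed genes with an adjusted p under 0.05, BRAF, MAPK3, CCND1, FOSL1 and DUSP1, and the 3 rows nearest to the member with the lowest p. DUSP2, DUSP7, DUSP8, DUSP9, DUSP16, SPRY3, SPRED3, EPHA4 and the line markers were named outside this rule, after their values were seen. Some genes of the lists enter the counts but are not reported here by name. Gene positions are from GENCODE release 44 on GRCh38 and were matched by symbol, since the table holds no coordinates. Alternatives covered the filter, pseudocount, scaling, variance model, replicate block, summed rows, rows listed at 0 and each sample left out. Python 3.11.15, pandas 2.3.3, scipy 1.17.1 and matplotlib 3.10.9 were used.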

Additional observations from a re-analysis of the deposited data

How the results depend on the processing

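All 11 member rows kept their direction under all alternatives in which they were tested, which were 14 processing settings and leaving out each of the 6 samples. With rows of the same symbol summed, however, PHLDA1 had a single value (0.05), which was compared only with its higher row. That value has the opposite sign to the second PHLDA1 row (-0.23), which had no value of its own in that setting. DUSP6 was the only member called under any alternative. The count of members called lower was 0 without the filter on low values, where the adjusted p of DUSP6 was 0.0578 over more tested rows, and ranged from 0 to 1 with each sample left out. None was called higher under any alternative. Over all rows, 204 were called lower and 76 higher with a pseudocount of 5 FPKM, and 26 to 397 lower and 3 to 222 higher with each sample left out. A replicate block gave 216 rows called lower and 99 higher over all rows, and the adjusted p of DUSP6 was 0.0484. The deviations of same-numbered samples had correlations of 0.001, -0.088 and 0.030 across rows. Such values over all rows cannot show whether single rows follow the replicate number. DUSP4 and DUSP6 were lowest in replicate 2 of both groups and DUSP5 was highest there, while SPRY2 was lowest in shCtr and highest in shZNF148. With the block the SE was 0.11 for DUSP6 and 0.20 for SPRY2, against 0.17 for each without it. Whether the numbers pair the samples is therefore not settled. Without 1 sample, the log2 fold change of MAPK3 ranged from -0.19 to 0.024. The cause of these changes was not tested. CCND1 was called in 6 of 20 alternatives and EGR1 in 3 of 19. The scalings moved the median of all rows by at most 0.03. With 3 samples a group, the exact test of a single gene cannot reach 0.05.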

Other observations

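Genes under the filter of a mean of 1 FPKM were not tested, and some of them are given here as values. DUSP8 was 0.630, 0.675 and 0.300 FPKM in shCtr and 0.139, 0.117 and 0.196 FPKM in shZNF148. DUSP9 was 0.824, 0.331 and 0.343 FPKM in shCtr and 0.228, 0.0922 and 0.192 FPKM in shZNF148. DUSP2 was 0.227, 0.486 and 0.288 FPKM in shCtr and 0.469, 1.08 and 0.658 FPKM in shZNF148. EPHA4, an Eph receptor used as an ERK output, was 0.219, 0.301 and 0.295 FPKM in shCtr and 0.533, 1.04 and 0.566 FPKM in shZNF148. The number of reads behind these values is unknown.

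The log2 ratio of DUSP10 to DUSP1 within a sample was 1.64, 2.05 and 1.67 in shCtr and 3.64, 4.06 and 3.46 in shZNF148, so the balance of these phosphatases shifted by 1.93 without any role for the scaling between samples. The ratio of ETV4 to ETV5 was 0.84 ± 0.13 in shCtr and 1.13 ± 0.06 in shZNF148 on the log2 scale (SD, n = 3 each), with no overlap. Both pairs were chosen after their values were seen and were not tested.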
